A study of Mus musculus with 6 samples.

Results

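The 9 genes of heme breakdown, bilirubin handling and heme transport described here were measured in mouse liver, out of 47729 genes in the count files. They were taken by symbol from the deposited expression table and linked to the counts by gene identifier, and all 9 had enough reads to be tested. The genes are Hmox1, Hmox2, Blvra, Blvrb, Ugt1a1, Hpx, Hebp1, Flvcr1 and Slc48a1. Flvcr1 is listed in that table under its older symbol, Mfsd7b.

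There were 3 RNA-seq libraries of shAtoh8 livers, in which the transcription factor gene Atoh8 was knocked down, and 3 of shNC control livers. All came from C57BL/6 livers, and both groups had received a diet with 0.1% DDC for 17 days, so no library shows the liver without DDC. The sample titles and the genotype label call the controls WT, whereas the design text calls them shNC. The sources used here do not state age, sex, how the hairpin was delivered, which cells received it, or whether each library came from its own animal. Each n below therefore counts libraries, and the p-values measure the spread between these libraries. The label hepatocyte stands beside frozen whole liver as the source, and which of these the RNA came from was not tested. Each result below is a level in a bulk sample, in which fewer cells of a type and less RNA per cell cannot be told apart.

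Heme oxygenase opens the heme ring and releases iron, carbon monoxide and biliverdin. Biliverdin reductase turns biliverdin into bilirubin, and hepatocytes conjugate bilirubin with glucuronic acid so that it can leave in bile. Hemopexin carries free heme in plasma to the liver, and membrane transporters move heme across cell and endosome membranes. DDC leads to an inhibitor of ferrochelatase, the enzyme that inserts iron into protoporphyrin.

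Between 31912058 and 37969644 reads per library fell in genes, and 3 reads, taken as the floor, corresponded to 0.079 to 0.094 CPM (reads scaled to library size). Atoh8 stood at 10.2, 9.83 and 5.64 CPM in shAtoh8 livers, against 63.8, 16.8 and 16.4 CPM in shNC control livers. The groups did not overlap, with a log2 fold change of -1.92 (SE 0.58, adjusted p = 0.197 in edgeR's quasi-likelihood test) in all 6 libraries and -0.95 (SE 0.23, adjusted p = 0.0115) without shNC control replicate 1. That library stood apart as a whole, at a root mean square log2 difference of 1.25 and 1.31 from the other controls, which differed from each other by 0.52. It also had reads in the fewest genes, 17362 against 18209 to 19098 in the others. Its share of reads outside genes (2.48%) was the lowest of the 6, and its share of ambiguous reads (6.87%) the highest. Results are therefore given with all 6 libraries and again without that library (named the first control below), which leaves 2 controls. The 7 hepatocyte markers had reads in every library and summed to between 98496 and 111688 CPM in shAtoh8 livers, against 100729 to 136440 CPM in shNC control livers, most of it Alb. None of the 7 was called with all libraries. Without the first control, 2 fell: Cps1, a urea cycle enzyme gene, at a log2 fold change of -0.64 (adjusted p = 0.0468), and Ttr, which encodes transthyretin, at -0.53 (adjusted p = 0.0485). The groups of both did not overlap, and their part in the differences below was not tested.

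With all 6 libraries, none of the 9 genes passed an adjusted p of 0.05 in edgeR, where 0.864% of the 13767 tested genes did. Blvrb, Ugt1a1 and Hebp1 had an unadjusted p under 0.05, and stood lower in shAtoh8 livers. The DESeq2 test called 2 of the 9 lower (Blvrb and Ugt1a1), where it called 6.78% of all genes. Groups did not overlap for the same 3 genes, which were lower in every shAtoh8 library than in any control, as were 10.0% of all tested genes. No gene of the 9 was higher without overlap, as 13.0% of all genes were, and 23.1% did not overlap in either direction. Without shNC control replicate 1, Hmox1 and Slc48a1 rose and Blvrb and Ugt1a1 fell in edgeR, 4 of 9 genes beside 32.6% of the 14222 tested genes. A count this near the background says little of the 9 genes as a group. With the GC and length offset and without that control, 1 rose and 3 fell, beside 32.2% of all genes (1750 higher and 2829 lower). On all 6 libraries, limma-voom with quality weights called 3 higher (Hmox1, Hpx and Slc48a1) and 3 lower (Blvrb, Ugt1a1 and Hebp1), beside 37.0%. The median log2 fold change of the 9 genes in edgeR was -0.12 with all libraries and 0.05 without that control, against -0.05 and 0.01 over all tested genes.

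**Figure D1:**
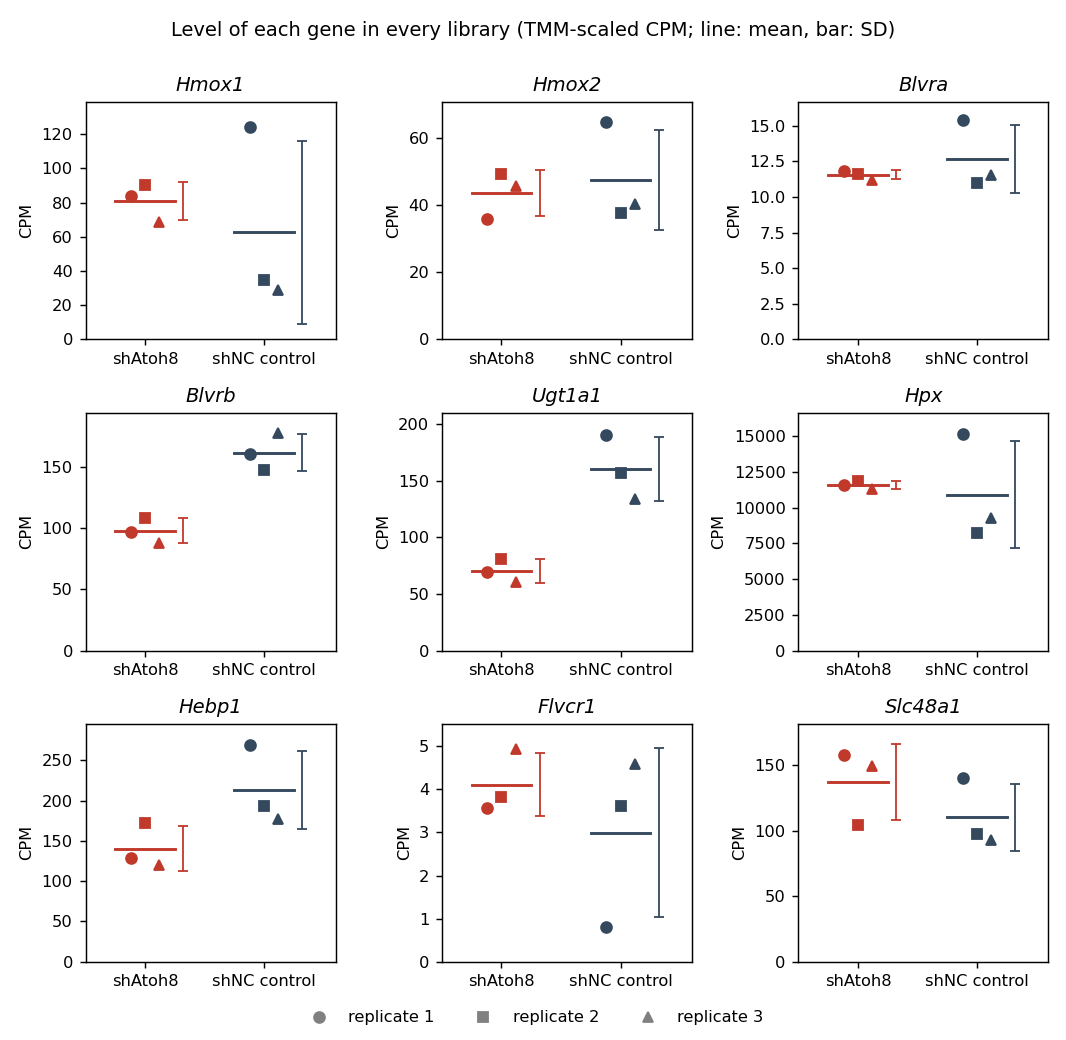
Reads of each gene in every library, in TMM-scaled CPM, with shAtoh8 livers left of shNC control livers, the mean as a line and the SD as a bar (n = 3 each). In the panels of Blvrb, Ugt1a1 and Hebp1 the shAtoh8 points all lie under the control points, and in that of Hmox1 the control of replicate 1 lies far above the other controls.

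The sequences upstream of those 3 genes are shown because theirs were the groups that did not overlap, and because ATOH8 is a basic helix-loop-helix factor, a family that binds E-boxes. They are the 250 bases before the RefSeq start site (GRCm38.p6), 5′ to 3′ on the gene's strand, with each E-box (CANNTG, its own reverse complement in pattern) in capitals. The window of Ugt1a1 is chr1:88211709-88211958 on the plus strand, that of Blvrb is chr7:27447728-27447977 on the plus strand, and that of Hebp1 is chr6:135168216-135168465 on the minus strand.
Ugt1a1: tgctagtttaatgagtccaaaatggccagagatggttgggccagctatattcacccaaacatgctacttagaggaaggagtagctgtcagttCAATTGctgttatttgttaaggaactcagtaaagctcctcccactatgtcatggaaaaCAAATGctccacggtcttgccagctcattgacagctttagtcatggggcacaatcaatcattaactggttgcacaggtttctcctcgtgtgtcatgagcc
Blvrb: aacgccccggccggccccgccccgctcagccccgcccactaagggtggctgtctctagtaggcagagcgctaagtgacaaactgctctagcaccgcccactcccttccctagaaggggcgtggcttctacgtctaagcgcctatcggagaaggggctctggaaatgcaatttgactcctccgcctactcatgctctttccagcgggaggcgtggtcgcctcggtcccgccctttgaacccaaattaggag
Hebp1: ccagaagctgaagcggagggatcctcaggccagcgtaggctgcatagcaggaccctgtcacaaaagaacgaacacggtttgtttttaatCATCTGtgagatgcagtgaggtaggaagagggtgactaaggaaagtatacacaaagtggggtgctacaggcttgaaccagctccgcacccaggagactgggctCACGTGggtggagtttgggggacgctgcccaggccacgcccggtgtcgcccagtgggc

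The Ugt1a1 window held 2 E-boxes, which begin 158 and 100 bases before the start site. The Hebp1 window also held 2, at 161 and 58 bases before it, the nearer of which reads CACGTG. The Blvrb window held none. The RefSeq start used for Hebp1 lies 29807 bases inside the annotated gene, so other starts of that gene are not covered. Of the 9 genes, 7 matched a RefSeq promoter, and in the window nearest the annotated start (300 bases, of which 50 follow the start site) 4 of these 7 held an E-box, beside 72.3% of 32851 RefSeq promoters. The core of the antioxidant response element (TGACNNNGC, searched on both strands), which the activator NRF2 binds with small MAF proteins, stood in the windows of Blvra, Hpx and Flvcr1, 3 of 7, beside 12.4% of all promoters. These matches are letters in a window and say nothing of binding. Hmox1 and Slc48a1 were not matched.

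Heme oxygenase has an inducible form, HMOX1, and a constitutive form, HMOX2. Hmox1 (chr8:75093621-75100589, plus strand, GRCm38) stood at 84.0, 90.2 and 68.6 CPM in shAtoh8 livers, against 125, 34.9 and 29.0 CPM in shNC control livers. The first control was the highest of all 6 libraries and the other 2 controls were the lowest, so the groups overlapped. With all libraries the mean was 80.9 ± 11.1 CPM in shAtoh8 livers and 62.8 ± 53.5 CPM in shNC control livers (SD, n = 3 each), a log2 fold change of 0.37 (SE 0.54, 95% interval -0.89 to 1.62, edgeR adjusted p = 0.799). Without shNC control replicate 1, Hmox1 was 2.56-fold higher in shAtoh8 livers (log2 fold change 1.35, SE 0.16, edgeR adjusted p = 0.000362). Leaving out any other single library gave no call for Hmox1, in fits that called at most 0.148% of all tested genes. With all 6 libraries kept, limma-voom with quality weights, which gives less weight to libraries that vary more, called Hmox1 higher, at 1.28 (SE 0.18, adjusted p = 0.00125).

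Hmox2 (chr16:4726361-4766742, plus strand) stood at 36.0, 49.4 and 45.7 CPM in shAtoh8 livers, against 64.7, 37.7 and 40.3 CPM in shNC control livers. The groups overlapped, and the log2 fold change was -0.12 (SE 0.26, 95% interval -0.74 to 0.50, edgeR adjusted p = 0.871) in all libraries and 0.18 (SE 0.15, adjusted p = 0.397) without the first control. Hmox2 shares 892 exon bases with Cdip1 on the opposite strand, 40.2% of its exon bases. No source used here says that the counting used strand, so reads from this stretch cannot be told apart. Hmox1 had 2.33, 1.82 and 1.50 reads for each Hmox2 read in shAtoh8 livers, against 1.92, 0.925 and 0.721 in shNC control livers. The inducible form therefore gave more reads than the constitutive one in every shAtoh8 library and in the first control, and fewer in the other 2 controls.

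Hmox1 is also made by macrophages, which clear aged red cells. The 9 Kupffer cell and macrophage markers, all of which had reads in every library, summed to 430, 420 and 491 CPM in shAtoh8 livers, against 459, 315 and 291 CPM in shNC control livers. The 6 markers of lipid-associated macrophages, likewise present throughout, summed to 238, 163 and 216 CPM in shAtoh8 livers, against 238, 79.3 and 80.6 CPM in shNC control livers. Both sums were high in the first control and low in the other 2, as Hmox1 was. None of these markers passed the test with all libraries, and without the first control 5 Kupffer cell and macrophage markers rose and 1 (Cd163) fell, and 5 of 6 lipid-associated markers rose. The 6 stellate cell markers summed to 223 to 279 CPM in shAtoh8 livers, against 140.4 to 192 CPM in shNC control livers, and 2 of them rose without the first control. These marker counts stand beside 16.5% of all tested genes called higher and 16.1% called lower in that fit. The part of these cells in the Hmox1 and Slc48a1 differences was not tested. The 4 hemoglobin genes listed summed to between 1 and 9 reads in shAtoh8 livers, against 0 to 7 reads in shNC control livers, and the 6 lymphocyte markers had at most 6 reads each in any library.

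Among 10833 candidate genes, Zbtb22 and Pacs1 were among the 3 whose log2 CPM over the 6 libraries lay nearest to that of Hmox1, after each gene was centred on its own mean, both at a root mean square distance of 0.14. Zbtb22, which encodes a zinc finger and BTB domain protein, stood at 22.6, 20.4 and 17.3 CPM in shAtoh8 livers, against 35.0, 10.5 and 8.28 CPM in shNC control livers. As for Hmox1, its first control was the highest library and the other 2 controls were the lowest, a likeness for which the gene was chosen.

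Blvra encodes the reductase that makes most bilirubin in adult tissue, and Blvrb a second biliverdin and flavin reductase that is abundant in red cells. Blvra (chr2:127070665-127097084, plus strand) stood at 11.8, 11.6 and 11.2 CPM in shAtoh8 livers, against 15.4, 11.0 and 11.5 CPM in shNC control livers. The groups overlapped, and the log2 fold change was -0.13 (SE 0.22, 95% interval -0.63 to 0.38, edgeR adjusted p = 0.827). Without the first control it was 0.05 (SE 0.15, adjusted p = 0.822).

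Blvrb (chr7:27447978-27466144, plus strand) stood at 97.3, 109 and 88.1 CPM in shAtoh8 livers, against 161, 147 and 178 CPM in shNC control livers. Each of the 3 shAtoh8 values lies under every control value. The log2 fold change was -0.72 in both fits: with all 6 libraries the SE was 0.18 and the edgeR adjusted p 0.135, and without the first control the SE was 0.14 and the adjusted p 0.00495. In DESeq2 it also passed with all 6 libraries (adjusted p = 0.00455). Blvrb had 8.23, 9.35 and 7.88 reads for each Blvra read in shAtoh8 livers, against 10.5, 13.4 and 15.4 in shNC control livers, which do not overlap. The first control, which stood apart for many genes, lies among the others for Blvrb. Of 9 erythroid markers, 6 had at most 3 reads in every library, and the sum of all 9, most of it Alas2, was 19.0 to 22.8 CPM in shAtoh8 livers, against 17.2 to 32.4 CPM in shNC control livers.

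UGT1A1 is the enzyme that conjugates bilirubin. Ugt1a1 (chr1:88211959-88218997, plus strand) stood at 69.4, 80.9 and 60.3 CPM in shAtoh8 livers, against 190.4, 157 and 134 CPM in shNC control livers. Its highest shAtoh8 value is well under its lowest control value. Its log2 fold change of -1.19 (SE 0.21, 95% interval -1.69 to -0.70) was the furthest from 0 of the 9, and it came closest to the threshold with all libraries (edgeR adjusted p = 0.0585). It passed in DESeq2 (adjusted p = 2.8e-05), in edgeR with no filter on low counts (0.0348) and in edgeR with an offset for GC content and transcript length (log2 fold change -1.43, 0.0401). With that offset the median log2 fold change of all genes was -0.16. Without shNC control replicate 1 the log2 fold change was -1.04 (SE 0.15, edgeR adjusted p = 0.000948).

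The UGT1A genes lie in a row and share their last exons: 58.9% of the exon bases of Ugt1a1 (1311 of 2224) are annotated for other Ugt1a genes too, and 913 are its own. How the authors' counting split reads of the shared exons cannot be told from the counts, so the values of single UGT1A genes are uncertain. The reads of all 9 listed genes of the cluster summed to 233, 223 and 230 CPM in shAtoh8 livers, against 365, 460 and 473 CPM in shNC control livers. The summed cluster was lower in every shAtoh8 library, and its log2 fold change was -0.92 (edgeR adjusted p = 0.0788) in all libraries and -1.01 (adjusted p = 0.000642) without the first control. Ugt1a9, which conjugates many drugs and phenols, stood at 84.6, 67.0 and 81.1 CPM in shAtoh8 livers, against 83.5, 237 and 278 CPM in shNC control livers. Its first control lies within the shAtoh8 range. The log2 fold change was -1.36 (adjusted p = 0.200) with all libraries, and without that control it fell, at -1.72 (adjusted p = 0.000164). Ugt1a5 ran the other way, at 22.7, 27.7 and 31.2 CPM in shAtoh8 livers, against 22.5, 16.1 and 15.2 CPM in shNC control livers, with a log2 fold change of 0.60 (adjusted p = 0.305) in all libraries and 0.81 (adjusted p = 0.00513) without the first control. Ugt1a1 made up 29.8%, 36.2% and 26.3% of the cluster's reads in shAtoh8 livers, against 52.2%, 34.1% and 28.3% in shNC control livers, so its share differed from the shAtoh8 range only in the first control. Of the 7 cluster genes that could be tested, none passed with all libraries, and 1 higher (Ugt1a5) and 3 lower (Ugt1a1, Ugt1a9 and Ugt1a10) passed without the first control.

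**Figure D2:**
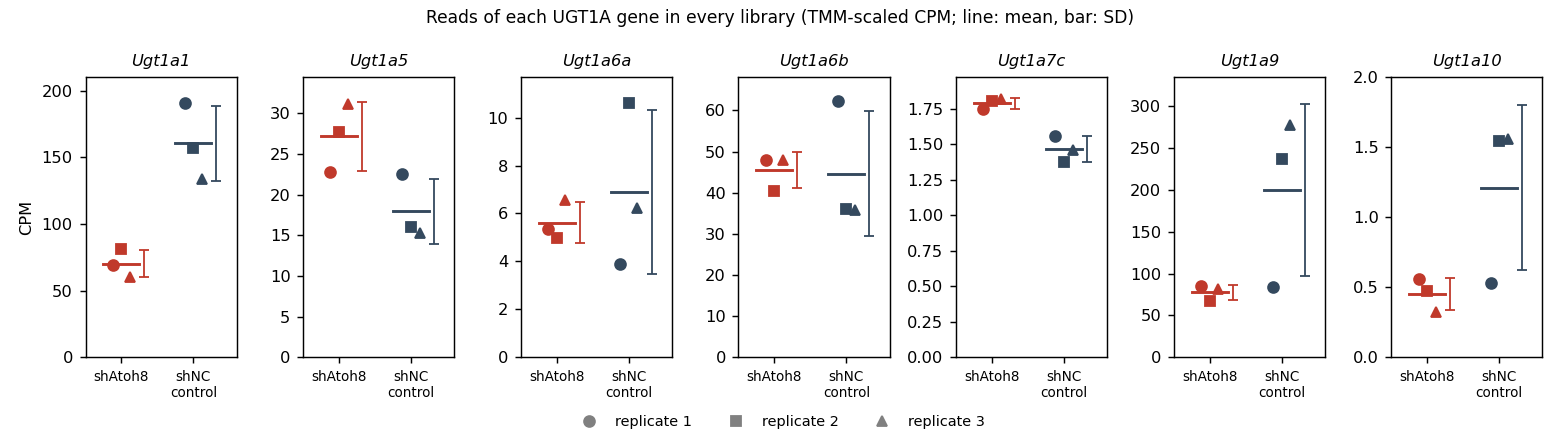
Reads of each tested UGT1A gene in every library, in TMM-scaled CPM, with shAtoh8 livers left of shNC control livers, the mean as a line and the SD as a bar (n = 3 each). Ugt1a1 was lower in all 3 shAtoh8 libraries, Ugt1a9 was lower than in controls 2 and 3, and Ugt1a5 was higher.

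The 3 genes nearest to Ugt1a1 in pattern were Acad10, Rhbdd2 and Igfals, at root mean square log2 distances of 0.057, 0.113 and 0.136 over the 6 libraries. Acad10, which encodes an acyl-CoA dehydrogenase family member, stood at 34.2, 39.7 and 29.6 CPM in shAtoh8 livers, against 96.2, 69.9 and 63.9 CPM in shNC control livers. These values follow those of Ugt1a1 at about the same ratio to it in each library, the likeness for which the gene was chosen.

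Among the heme carriers, hemopexin takes up free heme in plasma, and Hpx (chr7:105591613-105600137, minus strand) is one of the most abundant transcripts of the liver. It stood at 11600, 11883 and 11309 CPM in shAtoh8 livers, against 15181, 8241 and 9308 CPM in shNC control livers. The first control was the highest of the 6 and the other 2 were the lowest. The log2 fold change was 0.09 (SE 0.29, 95% interval -0.60 to 0.78, edgeR adjusted p = 0.923) with all libraries and 0.42 (SE 0.18, adjusted p = 0.102) without the first control, where DESeq2 called it higher (0.41, adjusted p = 0.00497). Hebp1 (chr6:135137522-135198022, minus strand), which encodes a cytosolic heme-binding protein, stood at 129, 173 and 119.9 CPM in shAtoh8 livers, against 269, 193 and 177 CPM in shNC control livers. The groups did not overlap, but the second shAtoh8 value came close to the third control value. Its log2 fold change was -0.60 (SE 0.24, 95% interval -1.16 to -0.04, adjusted p = 0.311) and -0.39 (SE 0.17, adjusted p = 0.104) without the first control. With the GC and length offset and without that control, edgeR called it lower, at -0.65 (adjusted p = 0.0131), where the median of all genes was -0.11.

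SLC48A1 (HRG1) brings heme from the endosome or phagolysosome into the cytosol. Slc48a1 (chr15:97778520-97792692, plus strand) stood at 158, 104 and 149.8 CPM in shAtoh8 livers, against 140.0, 97.8 and 93.0 CPM in shNC control livers. The groups overlapped, since the second shAtoh8 library lies under the first control. The log2 fold change was 0.32 (SE 0.25, 95% interval -0.26 to 0.90, adjusted p = 0.619) with all libraries, and 0.54 (SE 0.18, adjusted p = 0.0469) without the first control. There, the GC and length offset brought it to 0.27 (adjusted p = 0.303), and the median of all genes to -0.11. FLVCR1, described as a heme exporter, had the fewest reads. Flvcr1 (chr1:191005847-191026158, minus strand) stood at 3.56, 3.82 and 4.94 CPM in shAtoh8 livers, against 0.795, 3.61 and 4.58 CPM in shNC control livers, and the first control rests on 24 reads. Its log2 fold change was 0.45 (SE 0.57, adjusted p = 0.763) with all libraries and 0.02 (SE 0.25, 95% interval -0.54 to 0.59, adjusted p = 0.957) without that control.

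**Figure D3:**
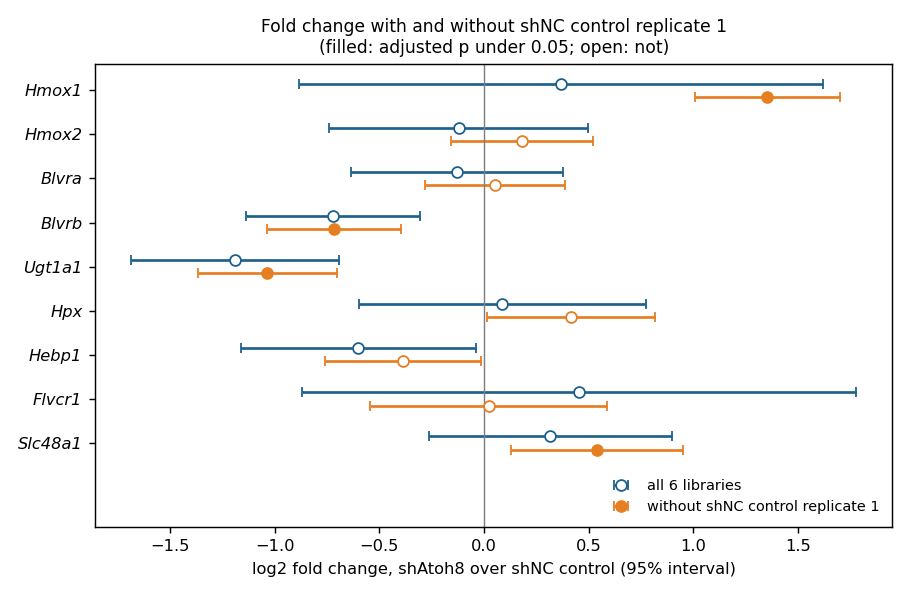
Log2 fold change of each gene, shAtoh8 over shNC control, with its 95% interval in edgeR, for all 6 libraries and without shNC control replicate 1, where filled points had an adjusted p under 0.05. The intervals of Blvrb, Ugt1a1 and Hebp1 stay below 0 in both fits, although Hebp1 is filled in neither. Hmox1 stands at 0.37 with all libraries and 1.35 without that control.

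Levels were compared between genes per length, in the authors' FPKM values. Hpx averaged 9093 ± 208 FPKM in shAtoh8 livers and 8538 ± 3010 FPKM in shNC control livers (SD, n = 3 each). Ugt1a1 followed, at 291 ± 46.2 FPKM in shAtoh8 livers and 660 ± 124 FPKM in shNC control livers. Hebp1 and Blvrb came next, and then Slc48a1, Hmox1 and Hmox2, whose mean levels over all 6 libraries lay between 46.2 and 53.6 FPKM. Blvra averaged 13.8 FPKM and Flvcr1 1.43 FPKM over all 6 libraries. In the order of these means, the ranges of Slc48a1 and Hmox1 overlapped in both groups, as did those of Hmox1 and Hmox2, and no other neighbours overlapped within a group. The spacing of these levels was not seen in the counts. In CPM per kilobase of annotated exon, Hpx was again far above the rest, and the means over all 6 libraries kept the FPKM order but were close together from Ugt1a1 (51.8) through Hebp1 (47.6), Blvrb (46.7) and Slc48a1 (45.0) to Hmox1 (41.0). Within shAtoh8 livers that order differed, with Slc48a1 at 49.9, Hmox1 at 46.2, Hebp1 at 37.8, Blvrb at 35.2 and Ugt1a1 at 31.6 CPM per kilobase. In shNC control livers it ran from Ugt1a1 at 72.1 through Blvrb at 58.2, Hebp1 at 57.4 and Slc48a1 at 40.1 to Hmox1 at 35.9 CPM per kilobase. The rank of these 5 genes among themselves therefore depends on the unit. Both units carry the same doubt on shared exons for Ugt1a1. Its CPM per kilobase divides by all 2224 exon bases, of which 913 are its own. That value would be too low if reads of the shared bases were left uncounted, which cannot be told.

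**Figure D4:**
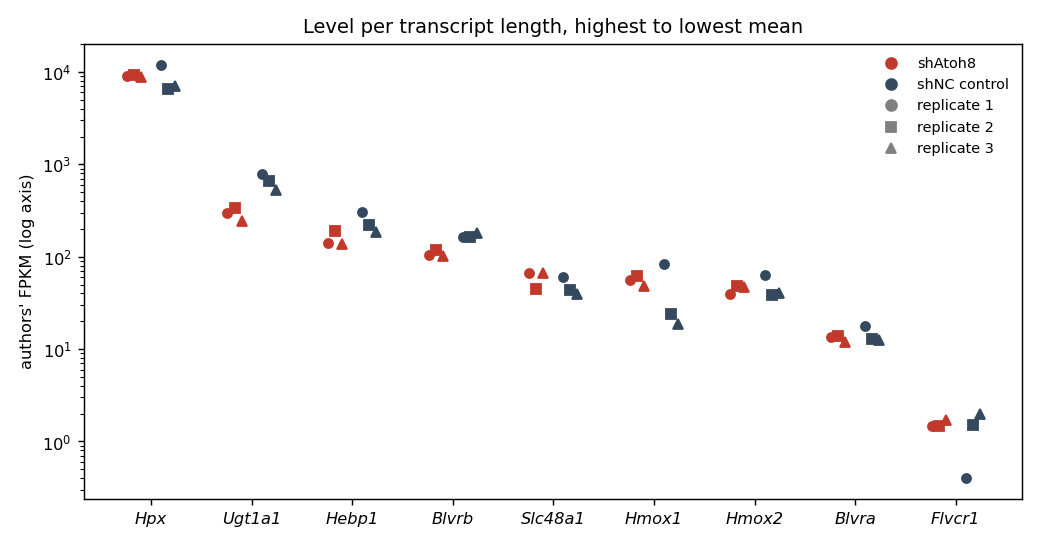
Level of each gene in every library, in the authors' FPKM on a log axis, ordered by the mean over all 6 libraries, with shAtoh8 livers left of shNC control livers. Hpx stands highest, at a mean of 8815 FPKM over all libraries, and Slc48a1, Hmox1 and Hmox2 overlap.

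The pathway lists around the 9 genes were counted in the same fits, whose backgrounds are 0.741% higher and 0.123% lower with all libraries, and 16.5% higher and 16.1% lower without the first control. Of 8 regulators of Ugt1a1, 1 fell with all libraries, Nr1i3, which encodes the nuclear receptor CAR. It averaged 20.2 ± 4.08 CPM in shAtoh8 livers and 62.2 ± 9.92 CPM in shNC control livers (SD, n = 3 each), a log2 fold change of -1.62 (SE 0.23, edgeR adjusted p = 0.0348). Without the first control, 5 of the 8 fell (Nr1i3, Nr1i2, Ppara, Nr3c1 and Ncor1), with a list median of -0.44. Nr1i2, which encodes PXR, was at -0.47 (adjusted p = 0.0485). CAR and PXR are known activators of Ugt1a1 transcription, but the list was not split into activators and repressors. The part of the 8 regulators in the Ugt1a1 difference was not tested. Of 8 heme synthesis genes, 1 fell with all libraries, Alas1, the rate-limiting enzyme, at 728 ± 176 CPM in shAtoh8 livers and 2865 ± 696 CPM in shNC control livers (log2 fold change -1.98, SE 0.29, adjusted p = 0.0368). The calls of Nr1i3 and Alas1 were lost when any library other than the first control was left out. In those fits at most 0.148% of all tested genes were called. Alas1 had 6.66, 10.1 and 10.4 reads for each Hmox1 read in shAtoh8 livers, against 18.5, 76.2 and 126 in shNC control livers, without overlap. Heme synthesis genes counted 1 higher (Ppox) and 3 lower (Alas1, Cpox and Uros) of 8 without the first control.

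The other lists had no call with all libraries. The list of bilirubin uptake, binding and export also holds Cyp2a5 and Ces1g, which encode enzymes. Its median log2 fold change over 12 genes was -0.55, beside -0.05 over all genes. Groups did not overlap for 7 of the 12, 6 lower (Cyp2a5 and Ces1g among them) and 1 higher, beside 10.0% lower and 13.0% higher of all tested genes. Slco1a4, which encodes an organic anion transporter, averaged 153 CPM in shAtoh8 livers and 301 CPM in shNC control livers (log2 fold change -0.97, adjusted p = 0.162). Cyp2a5, which can oxidise bilirubin in mouse liver, averaged 2712 CPM in shAtoh8 livers and 4957 CPM in shNC control livers (log2 fold change -0.87, adjusted p = 0.173). Without the first control, 5 of the 12 fell (Slco1b2, Slco1a4, Gsta3, Abcc2 and Cyp2a5) and 1 rose (Slco2b1). Gsta3 encodes a subunit of the glutathione transferases that hold bilirubin in the hepatocyte, and Abcc2 encodes the canalicular pump MRP2, which exports conjugated bilirubin. Heme scavenging (6 genes) had 1 lower without that control, Cd163, the receptor for hemoglobin and haptoglobin, at 7.05, 12.4 and 10.9 CPM in shAtoh8 livers, against 15.6, 34.1 and 36.9 CPM in shNC control livers. Apoe, in the same list, had a log2 fold change of -0.78 (adjusted p = 0.350) with all libraries. Heme carriers and chaperones counted 3 higher (Hebp2, Slc46a1 and Flvcr2) and 1 lower (Pgrmc1) of 9 without the first control. Hebp2, a relative of Hebp1, stood at 2.67, 1.72 and 2.05 CPM in shAtoh8 livers, against 0.265, 0.688 and 0.715 CPM in shNC control livers, so it was higher without overlap while Hebp1 was lower without overlap. Its log2 fold change was 1.94 (SE 0.46, adjusted p = 0.125) with all libraries and that of Pgrmc1, which encodes a heme-binding membrane protein, was -0.59 (adjusted p = 0.471). Iron from heme counted 0 higher and 3 lower of 8 without the first control (Tfrc, Ireb2 and Hamp). Aco1, which encodes an iron-regulatory protein, had a log2 fold change of -0.52 (adjusted p = 0.296) with all libraries. Hamp, the hepcidin gene, had a log2 fold change of -0.99 (adjusted p = 0.226) with all libraries and -0.73 (adjusted p = 0.0453) without the first control.

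The 8 regulators of Hmox1 had a median of -0.06 in log2 fold change, and of 0.21 without the first control, where 1 rose (Mafk) and 2 fell (Hif1a and Bach1). BACH1 is the repressor that heme removes from Hmox1, but this list too was not split into activators and repressors. The part of these regulators in the Hmox1 difference was not tested. Mafg had a log2 fold change of -0.50 (adjusted p = 0.396) with all libraries. Nfe2l2, which encodes NRF2, stood at 122, 130 and 118 CPM in shAtoh8 livers, against 57.4, 119 and 94.1 CPM in shNC control livers (log2 fold change 0.45, adjusted p = 0.522). The 12 other NRF2 target genes had a median of 0.17 with all libraries, and 1 of them (G6pdx) rose without the first control. Slc7a11, a cystine transporter gene in that list, had a log2 fold change of 1.38 (SE 0.73, adjusted p = 0.452).

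**Figure D5:**
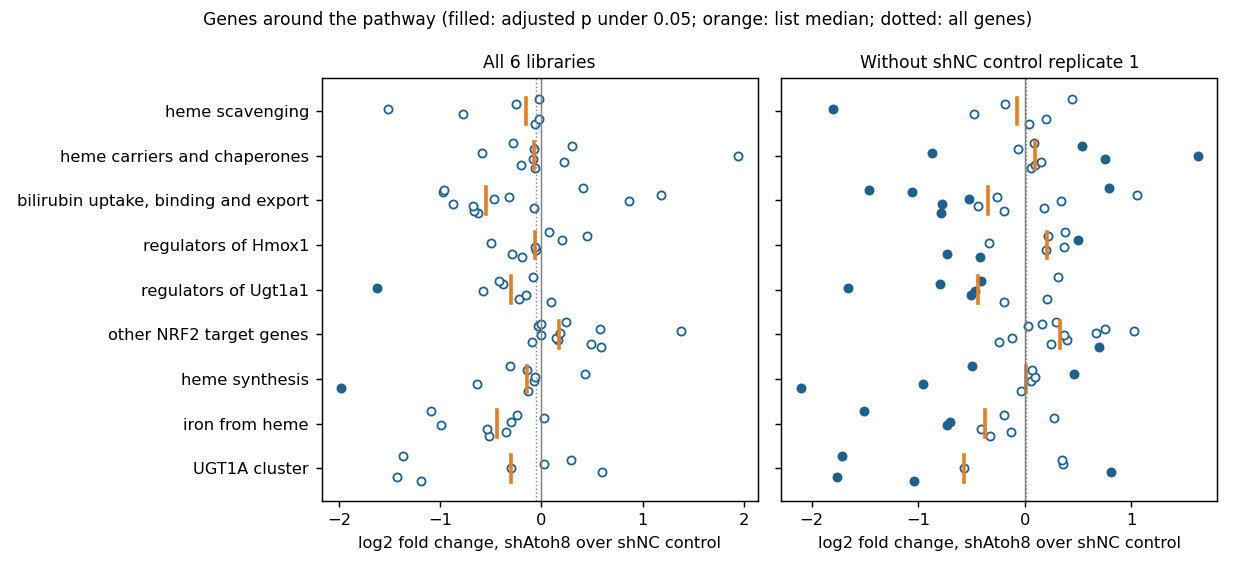
Log2 fold change of every tested gene of the pathway lists, shAtoh8 over shNC control, in all 6 libraries (left panel) and without shNC control replicate 1 (right panel), with called genes filled, list medians in orange and the median of all genes dotted. Nr1i3 and Alas1 are the genes called with all libraries, and 9 of 12 genes of the bilirubin list lie below 0.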

How the data were processed

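The data analysed were 6 RNA-seq libraries of mouse liver, with groups and replicate numbers from the labels. The authors deposited raw read counts per gene for each library and a table of FPKM values, which divide reads by length and library size. Per the submitters' processing notes, which give no role or order, the tools were Cufflinks 2.2.1, HTSeq, HISAT2 2.10, Trim Galore and FastQC, and the build GRCm38 (mm10). Count lines that name no gene were left out. Of all reads, 2.48% (the first control) to 5.66% lay outside genes, and 4.69% to 6.87% (the first control) were ambiguous.

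The main test was edgeR's quasi-likelihood test with group as the only term (R 4.3.3, edgeR 4.0.16), after filterByExpr and TMM scaling, over 13767 genes, with Benjamini-Hochberg adjustment and a threshold of 0.05. Standard errors and 95% intervals come from the same fit. DESeq2 1.42.0, limma 3.58.1 (voom with quality weights, and log2(FPKM + 1) or log2(FPKM + 0.1) where 3 libraries reached an FPKM of 0.5), other filters and scalings, removal of the 20 most abundant genes other than Hpx and of mitochondrial genes, a loess offset (span 0.3) for GC content and length in each library, the replicate number as a block, and each library left out were alternatives. The fits were also run on simulated counts. These held no outlying library, so they do not bear on calls that depend on the first control. Floors cover counting error only. No 2 libraries of a group agreed within sampling noise (chi-square per gene at least 50.2).

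Positions come from GENCODE M21 and upstream sequences from RefSeq (GRCm38.p6). The rule named every one of the 9 genes, Atoh8, in each list the genes that passed or otherwise the 2 with the smallest p, and the 3 genes nearest in pattern to Hmox1 and to Ugt1a1 among tested genes averaging 1 CPM or more. Other genes, such as those called only without the first control, were named after their values were seen. A result under this rule is not reported here. The 9 genes, the lists and the rule were chosen with earlier results of these data known.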

Additional observations from a re-analysis of the deposited data

How the results depend on the processing

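With all 6 libraries, 102 genes were called higher and 17 lower. The counts were 213 and 34 with no filter, 636 and 298 in DESeq2, 2576 and 2512 in voom with quality weights, and 27 lower on log2(FPKM + 1). Leaving out 1 library gave 0 to 2348 higher and 0 to 2284 lower, the most without shNC control replicate 1. In 3 of these edgeR fits no gene was called, with 1130, 1224 and 1633 genes at an unadjusted p under 0.05 without shAtoh8 replicate 1, shAtoh8 replicate 3 and shNC control replicate 2.

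Of the 9 genes, none was called higher and none lower with all libraries. Voom called 3 higher and 3 lower, where it called 37.0% of all genes, DESeq2 called 2 lower, no filter 1 lower, and the GC and length offset 1 lower. Leaving out 1 library gave 0 to 2 higher and 0 to 2 lower. Without the first control, the GC and length offset called 1 higher and 3 lower. After seeing the data, DESeq2 and the replicate block were also fitted without that control, and called 3 higher and 2 lower (35.1% of all genes called) and 1 higher and 2 lower (26.7% of all genes). The GC and length offset moved the median of all genes to -0.16 (-0.11 without the first control), and the shares of higher and lower calls with it, to 311 and 253 with all libraries.

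Directions turned for Hmox2 (0.077 in voom, and without the first control 0.18 in DESeq2 and 0.31 with the block), whose log2 fold change ran from -0.27 to 0.18 with 1 library left out and was above 0 without shAtoh8 replicate 1 (0.061) or the first control. They turned for Blvra (0.047 in voom, and without the first control 0.052, 0.048 in DESeq2 and 0.038 with the block), over a range of -0.22 to 0.052, and for Hpx (-0.083 and -0.018 without control 2 or control 3), over a range of -0.083 to 0.42. None of these values passed the test. Atoh8 passed in DESeq2 (-1.91), in voom (-0.97), with the GC and length offset (-1.89, edgeR adjusted p = 0.0388) and without the first control (-0.95), over a range of -2.24 to -0.95 with 1 library left out. The cause was not tested.

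For the lists, leaving out 1 library gave 0 to 1 lower in heme scavenging, and 0 to 3 higher and 0 to 1 lower in heme carriers. It gave 0 to 1 higher and 0 to 5 lower in the bilirubin list, and 0 to 1 higher and 0 to 2 lower among Hmox1 regulators. Among Ugt1a1 regulators the counts were 0 to 5 lower, and among NRF2 targets 0 to 1 higher. Heme synthesis had 0 to 1 higher and 0 to 3 lower, iron from heme 0 to 3 lower, and the UGT1A cluster 0 to 1 higher and 0 to 3 lower. DESeq2 called 1 lower in heme scavenging, 1 higher in heme carriers, 2 lower in the bilirubin list and 2 lower in the UGT1A cluster. No other list count moved in the alternatives run.

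With the replicate number as a block, 33 genes were called higher and 2 lower, and none of the 9 genes was called. Same-numbered libraries deviated from their group means with correlations of 0.253, -0.082 and 0.290. For shAtoh8 replicates 1 and 3 the same number gave the highest correlation, and for replicate 2 control 1 did (0.104). Deviations within so small a group depend on each other, and the first control stands apart. Whether the numbers pair the samples therefore cannot be told from these correlations.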
